A study of Mus musculus with 14 samples.

Results

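The SOX proteins examined here were 9 transcription factors of the mouse nervous system, encoded by *Sox1*, *Sox3*, *Sox4*, *Sox5*, *Sox6*, *Sox9*, *Sox11*, *Sox12* and *Sox21*. They were taken by gene symbol, through RefSeq identifiers, from 6 RNA-seq tables of 23152 loci each, and all 9 were found, once each. Their levels were read in all 11 RNA-seq libraries, and TAF9B and RNA POL2 ChIP-seq peaks were sought within 50 kb of their transcription start sites. The study asked what the core promoter factor TAF9B, a paralog of the TFIID and PCAF/SAGA subunit TAF9, does when mouse embryonic stem (ES) cells become motor neurons.

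The cells were C57BL/6 mouse ES cells, 1 clone per genotype: the JM8 clone for WT and the Taf9b_BG10 clone for *Taf9b* KO, in which a *LacZ-Neo* cassette takes the place of the protein-coding exons of this X-linked gene. Both were kept, as ES cells, on feeder layers of mouse embryonic fibroblasts. They were sequenced undifferentiated and as embryoid bodies (EBs) after 2, 4 and 6 days of differentiation, in which retinoic acid and the smoothened agonist SAG direct cells toward motor neurons. Newborn tissue came as 1 library of WT and 1 of *Taf9b* KO spinal column, from littermates, and 1 of WT spinal cord, all C57BL/6. ChIP-seq was done on WT EB-derived motor neuron cultures of the HBG3 clone, which carries a motor neuron GFP reporter, and 1 TAF9B list and 1 POL2 list of peaks were used. Every condition has 1 library, so no value below has a replicate error and no difference between conditions was tested.

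Levels are FPKM (fragments per kilobase of transcript, scaled to the size of the library), a unit that corrects for transcript length and so allows different genes to be compared. Each pair of libraries was normalized in a table of its own, and levels set across tables rest on that scaling. *Taf9b* itself went against its labels in culture: the KO-labelled libraries held 3.06, 4.08, 4.27 and 4.01 FPKM in ES cells and at days 2, 4 and 6, and those labelled WT held 0.537, 0.516, 1.96 and 1.37 FPKM. In spinal column it was at 6.65 FPKM in the WT-labelled library and 3.31 FPKM in that labelled KO, and in spinal cord at 7.44 FPKM. A table gives 1 value per locus, so fragments from exons outside the deletion cannot be told apart from those of an intact transcript. Whether the labels of the culture libraries were exchanged was not tested, and an exchange would turn the sign of every culture ratio between genotypes below and swap the names of the 2 series over time. Ratios between genotypes are therefore given as KO-labelled over WT-labelled. In bulk RNA, fewer cells of a type and less RNA per cell cannot be told apart.

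SOX proteins bind DNA in the minor groove through an HMG box and bend it, usually beside a partner such as a POU factor. The SOXB1 proteins, SOX1, SOX2 and SOX3, keep neural progenitors dividing, and the SOXB2 repressor SOX21 opposes them as cells leave the progenitor state. The SOXC proteins SOX4, SOX11 and SOX12 act later, on pan-neuronal genes of newly born neurons. The SOXD proteins SOX5 and SOX6 have no activation domain of their own and modulate other SOX proteins in glia, neurons and cartilage, where they work beside the SOXE protein SOX9, which also starts gliogenesis in the spinal cord.

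The sequences under the TAF9B peaks nearest to each gene are shown first, with the peak of the highest score where that is another one, because they are the DNA at which TAF9B was found around 5 of the 9 genes. Each line is 200 bases of build mm9 centred on a peak. Capitals mark the letters ACAAAG or ACAATG (cores of the SOX binding motif), GGGCGG (a GC box) and CCAAT, each on either strand.
Sox1 TAF9B window 3712 bp upstream, chr8:12391707-12391906, plus strand: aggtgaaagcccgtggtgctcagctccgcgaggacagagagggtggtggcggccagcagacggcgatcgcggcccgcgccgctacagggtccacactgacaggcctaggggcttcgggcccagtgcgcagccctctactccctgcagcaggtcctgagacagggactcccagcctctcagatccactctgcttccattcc
Sox4 TAF9B window 4258 bp upstream, chr13:29049740-29049939, plus strand: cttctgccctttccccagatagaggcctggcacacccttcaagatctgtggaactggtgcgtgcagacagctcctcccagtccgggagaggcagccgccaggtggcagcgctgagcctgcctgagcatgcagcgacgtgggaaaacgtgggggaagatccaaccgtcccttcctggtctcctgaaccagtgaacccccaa
Sox4 TAF9B window 5989 bp upstream, chr13:29051471-29051670, plus strand: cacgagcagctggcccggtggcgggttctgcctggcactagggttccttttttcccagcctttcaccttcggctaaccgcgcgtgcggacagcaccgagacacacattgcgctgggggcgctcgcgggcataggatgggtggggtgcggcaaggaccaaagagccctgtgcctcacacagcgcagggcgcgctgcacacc
Sox6 TAF9B window 1647 bp upstream, chr7:123183805-123184004, plus strand: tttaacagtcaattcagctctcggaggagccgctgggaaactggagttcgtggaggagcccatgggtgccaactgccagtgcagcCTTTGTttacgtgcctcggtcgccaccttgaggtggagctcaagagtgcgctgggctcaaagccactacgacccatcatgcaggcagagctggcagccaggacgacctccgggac
Sox9 TAF9B window 106 bp upstream, chr11:112643332-112643531, plus strand: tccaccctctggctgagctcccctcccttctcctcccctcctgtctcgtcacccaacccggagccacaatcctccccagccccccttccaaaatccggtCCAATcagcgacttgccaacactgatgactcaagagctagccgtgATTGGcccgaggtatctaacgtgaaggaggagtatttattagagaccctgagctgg
Sox12 TAF9B window 177 bp upstream, chr2:152223859-152224058, plus strand: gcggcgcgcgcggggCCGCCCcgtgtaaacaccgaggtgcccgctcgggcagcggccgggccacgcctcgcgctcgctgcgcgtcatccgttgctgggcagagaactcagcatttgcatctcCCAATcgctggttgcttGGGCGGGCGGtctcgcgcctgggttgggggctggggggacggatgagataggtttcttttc
Sox12 TAF9B window 8190 bp upstream, chr2:152231872-152232071, plus strand: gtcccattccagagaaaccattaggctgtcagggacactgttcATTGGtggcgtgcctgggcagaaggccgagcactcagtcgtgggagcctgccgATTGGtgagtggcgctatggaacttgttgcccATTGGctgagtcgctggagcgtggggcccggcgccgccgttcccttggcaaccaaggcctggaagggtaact

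A SOX core was in 1 of these 7 windows, that of *Sox6*, and either core was in 19.6% of the windows of the same length around all 10396 TAF9B peaks on assembled chromosomes. CCAAT was in 3 of the 7 windows, at *Sox9* and at both *Sox12* peaks, with 3 matches in the *Sox12* window at 8190 bp, and in 32.2% of all windows. The GC box was in 1 window, the *Sox12* window at 177 bp, with 3 matches, and in 30.9% of all windows. None of the 7 held TATAAA, which 4.29% of all windows held. The G+C content of the 7 ran from 57.5% at *Sox9* to 69.5% at the *Sox12* window at 177 bp, all above the median of 57.0% over all windows. No match says only that these letters are not in these windows.

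A further 3 stretches show the 250 bases before the start site of genes that differ in their peaks: *Sox1*, with a TAF9B peak upstream and no POL2 peak within 50 kb, and *Sox11* and *Sox21*, with POL2 at the start site and no TAF9B peak within 50 kb. They are RefSeq promoter sequences of build GRCm38.p6 that matched mm9 exactly, printed on the strand of the gene, with the same capitals and also TATAAA.
Sox1 upstream stretch, chr8:12395269-12395518, plus strand: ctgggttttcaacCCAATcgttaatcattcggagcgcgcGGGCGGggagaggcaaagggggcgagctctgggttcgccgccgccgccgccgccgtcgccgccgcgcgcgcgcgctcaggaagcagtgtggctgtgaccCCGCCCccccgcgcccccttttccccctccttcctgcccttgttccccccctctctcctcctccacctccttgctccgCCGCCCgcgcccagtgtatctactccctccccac
Sox11 upstream stretch, chr12:28027584-28027833, minus strand: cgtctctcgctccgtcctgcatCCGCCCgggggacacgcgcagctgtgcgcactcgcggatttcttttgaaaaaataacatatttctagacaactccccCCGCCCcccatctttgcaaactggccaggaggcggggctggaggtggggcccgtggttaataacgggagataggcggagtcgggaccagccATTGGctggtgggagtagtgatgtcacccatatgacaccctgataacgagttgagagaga
Sox21 upstream stretch, chr14:118636253-118636502, minus strand: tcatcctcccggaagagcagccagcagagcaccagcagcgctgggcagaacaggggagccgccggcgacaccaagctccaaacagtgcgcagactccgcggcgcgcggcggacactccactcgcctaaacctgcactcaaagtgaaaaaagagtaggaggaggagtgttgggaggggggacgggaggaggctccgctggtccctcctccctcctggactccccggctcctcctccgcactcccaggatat

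*Sox1* held 3 GC boxes and 1 CCAAT box in its stretch, *Sox11* 2 and 1, and *Sox21* neither. Over 32851 RefSeq upstream stretches of this length, 32.7% held a GC box, 33.8% CCAAT, 12.4% TATAAA and 25.2% a SOX core, and none of these 3 stretches held TATAAA or a SOX core. *Sox3* and *Sox9* have no entry in the promoter table.

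TAF9B peaks had their midpoint within 50 kb of a start site of 5 of the 9 genes, *Sox1*, *Sox4*, *Sox6*, *Sox9* and *Sox12*, beside 56.0% of the 22047 genes with a start site on mm9. The same 5 genes had one within 10 kb, beside 32.5% of genes. At the start site itself, within 500 bp, 2 of the 9 had one, *Sox9* and *Sox12*, beside 20.8% of genes. POL2 peaks within 500 bp of a start site were found at 6 of the 9, *Sox3*, *Sox4*, *Sox5*, *Sox9*, *Sox11* and *Sox21*, beside 33.5% of genes.

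The TAF9B peak upstream of *Sox1*, at chr8:12391693-12391922, had a MACS score of 134 and lay in an intron of the overlapping gene *Gm5607*. A second one, at chr8:12439149-12439420, scored 125 and lay 43.8 kb downstream of the *Sox1* start site. Both stood above the median score of 83.3 over 10415 TAF9B peaks. The nearest POL2 peak lay 277 kb away, at the start of *Tubgcp3*.

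At *Sox3* the arrangement was the opposite, with a POL2 peak of score 135 at the start site (chrX:58146443-58146869) and no TAF9B peak nearer than 488 kb. The median score of the 8620 POL2 peaks was 134. *Sox21* likewise had a POL2 peak of score 133 at its start (chr14:118635980-118636612), a second of score 224 about 4.42 kb downstream of it, and its nearest TAF9B peak at 126 kb.

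*Sox4* and *Sox11*, of the SOXC group, carried the POL2 peaks of highest score of the set. That of *Sox4*, at chr13:29044981-29045877, scored 798, above 97.8% of POL2 peaks, and that of *Sox11*, at chr12:28027401-28028707, scored 647, above 96.2%. Upstream of *Sox4*, a POL2 peak at chr13:29050089-29050975 lay between 2 TAF9B peaks, chr13:29049753-29049928 (score 51.5) and chr13:29051428-29051714 (score 84.96), and overlapped neither. *Sox11* had 6 POL2 peaks within 50 kb, of scores from 63.7 to 647, and its nearest TAF9B peak lay at 199 kb.

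*Sox12* held the TAF9B peak of highest score among the 11 within 50 kb of these genes, chr2:152231782-152232163, with a score of 259, above 96.1% of TAF9B peaks, between genes and clear of any POL2 peak. The one at its start, chr2:152223886-152224033, scored 54.7 and overlapped a POL2 peak over 94.6% of its length. That POL2 peak scored 96.1, above 34.5% of POL2 peaks. Another, at chr2:152236764-152237183 (score 146), lay nearer to the start of *Zcchc3* than to that of *Sox12*.

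Of the SOXD genes, *Sox6* had a TAF9B peak 1647 bp upstream of its outermost start site, chr7:123183806-123184004, with a score of 102, and another of score 56.2 in an intron at chr7:123146294-123146436. Its single POL2 peak, chr7:123177856-123178488, scored 50.6, above 0.673% of POL2 peaks, and lay in an intron. *Sox5* had a POL2 peak of score 61.8 at its most upstream start (chr6:144730188-144730620), and its nearest TAF9B peak, of score 53.4, lay in an intron 91.5 kb from a start site.

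*Sox9* was the only one of the 9 with TAF9B and POL2 midpoints both within 500 bp of a start site. Its TAF9B peak, chr11:112643306-112643559, scored 83.4, and its whole length lay inside a POL2 peak of score 488 (chr11:112643230-112644419). A weaker TAF9B peak, of score 52.2, lay 3885 bp downstream of a start site at chr11:112649840-112650015, beyond the end of the gene.

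**Figure D1:**
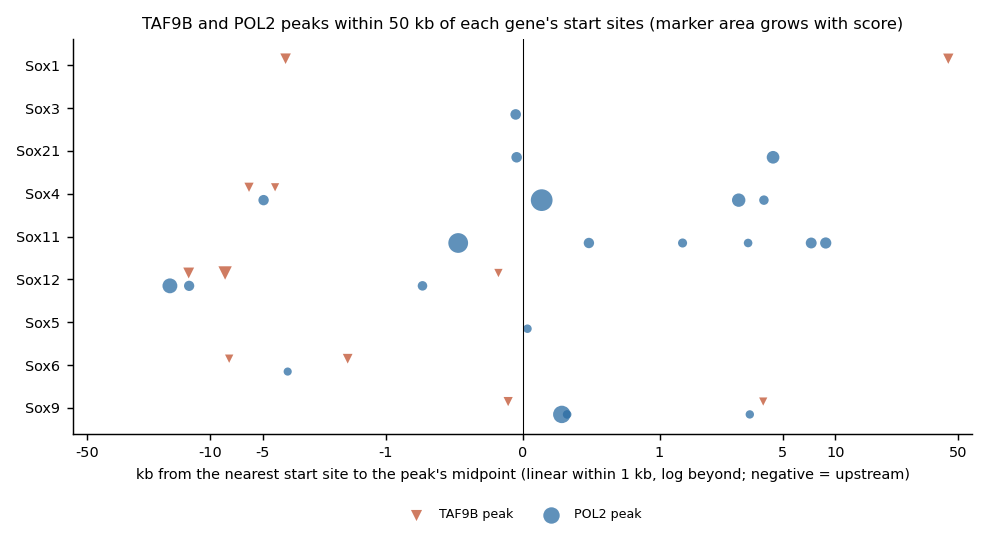
TAF9B peaks (triangles) and POL2 peaks (circles) within 50 kb of the 9 Sox genes, by distance in kb from the nearest start site to the midpoint of the peak, linear within 1 kb and logarithmic beyond, with marker area growing with MACS score. Sox3, Sox5, Sox11 and Sox21 carry no triangle, and Sox1 carries no circle.

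*Sox1* and *Sox3*, the progenitor genes of the SOXB1 group, had the widest ranges of the set over the 11 libraries, 134-fold and 123-fold between the highest and the lowest. *Sox1* in the WT-labelled libraries started from 1.20 FPKM in ES cells and stood at 0.258, 30.7 and 5.03 FPKM after 2, 4 and 6 days. In those labelled KO it was at 1.03, 0.229, 7.31 and 2.24 FPKM. Both series dipped at day 2, peaked at day 4 and came down at day 6, with the KO-labelled library lower at every stage. In tissue *Sox1* was at 1.04 FPKM in the WT spinal column, 0.563 in the KO-labelled one and 3.62 in spinal cord.

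*Sox3* in the WT-labelled libraries went from 2.23 FPKM in ES cells to 8.34 at day 2 and 150.4 at day 4, the highest level of any of the 9 genes in any library, and was at 64.9 FPKM at day 6. Its levels in those labelled KO were 1.38, 8.94, 41.2 and 7.68 FPKM. The KO-labelled level was thus close to the other at day 2 and below it at days 4 and 6. In tissue it was low, at 1.32 and 1.22 FPKM in WT and KO-labelled spinal column and 5.58 in spinal cord.

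*Sox2*, the other SOXB1 gene and not one of the 9, is needed in ES cells as well as in neural progenitors, and it sets the scale. Of the summed FPKM of *Sox1*, *Sox2* and *Sox3*, *Sox2* made up 98.6% and 99.0% in the ES cells labelled WT and KO and 95.2% and 94.97% at day 2. At day 4 *Sox3* held 56.8% and *Sox2* 31.6% in the WT-labelled library, and *Sox3* held 30.7% and *Sox2* 63.9% in that labelled KO. At day 6 the share of *Sox3* was 45.4% in the WT-labelled library and 7.27% in that labelled KO. In the latter *Sox2* was back at 90.6%, nearer to the undifferentiated cells than to the WT-labelled library. These shares are ratios within 1 library and do not depend on how libraries were scaled to each other. In spinal cord *Sox2* held 77.6%, *Sox3* 13.6% and *Sox1* 8.795%.

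*Sox21*, the SOXB2 repressor, had a narrower range than *Sox1* and *Sox3*, 19.6-fold over the 11 libraries, at 0.773, 1.58, 11.1 and 7.50 FPKM in ES cells and at days 2, 4 and 6 in the WT-labelled libraries. In those labelled KO it was at 0.567, 1.95, 7.99 and 3.98 FPKM. It was the only member higher in the KO-labelled spinal column, at 1.49 FPKM beside 1.29, and was at 6.57 FPKM in spinal cord. By a rough measure described below, the 2 column values stand for only about 35.6 and 87.1 fragments.

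The SOXC genes were already present in the ES cell libraries. The 6 fibroblast genes listed further below were present there too, with sums of 336 and 365 FPKM in the libraries labelled WT and KO. At day 2 they summed to 50.9 and 54.8 FPKM. The part of feeder cells in the SOXC levels was not tested. *Sox4* was at 8.03, 9.89, 29.2 and 40.2 FPKM over the 4 stages in the WT-labelled libraries and at 8.27, 10.1, 41.2 and 21.0 FPKM in those labelled KO. The series crossed: at day 4 the KO-labelled library was the higher one, and at day 6 the lower. *Sox4* was at 21.0 FPKM in the WT spinal column, 13.7 in the KO-labelled one and 44.6 in spinal cord, its highest level.

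*Sox11* was at 9.85, 10.6, 33.7 and 46.0 FPKM in the WT-labelled libraries and at 9.90, 10.8, 17.9 and 6.96 FPKM in those labelled KO. Up to day 2 the libraries differed by at most 0.02 on the log2 scale, at day 4 the KO-labelled one was lower, and at day 6 it was lower than the ES cells it came from. In tissue *Sox11* was at 5.95 FPKM in WT spinal column, 2.79 in the KO-labelled one and 12.8 in spinal cord.

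*Sox12* had the narrowest range of the 9 genes over the 11 libraries, 2.52-fold between the highest and the lowest. It was at 20.2, 24.4, 27.2 and 31.5 FPKM in the WT-labelled libraries and at 19.0, 24.0, 16.3 and 12.5 FPKM in those labelled KO. Its levels in WT and KO-labelled spinal column and in spinal cord were 16.8, 12.9 and 28.7 FPKM. The direction over time was opposite in the 2 series, upward at each step in the first and downward after day 2 in the second.

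Within the SOXC group the shares moved as well. *Sox12* made up 53.0% and 51.2% of the summed SOXC FPKM in ES cells labelled WT and KO. At day 6 *Sox11* was the largest of the 3 in the WT-labelled library, at 39.1%, and the smallest in that labelled KO, at 17.2%, where *Sox4* held 52.0%. In that library *Sox12* held 30.9%, and spinal cord had the same order of the 3 genes, with *Sox4* at 51.8%, *Sox12* at 33.3% and *Sox11* at 14.9%. The summed SOXC level at day 6 was 117.7 FPKM in the WT-labelled library and 40.5 FPKM in that labelled KO.

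**Figure D2:**
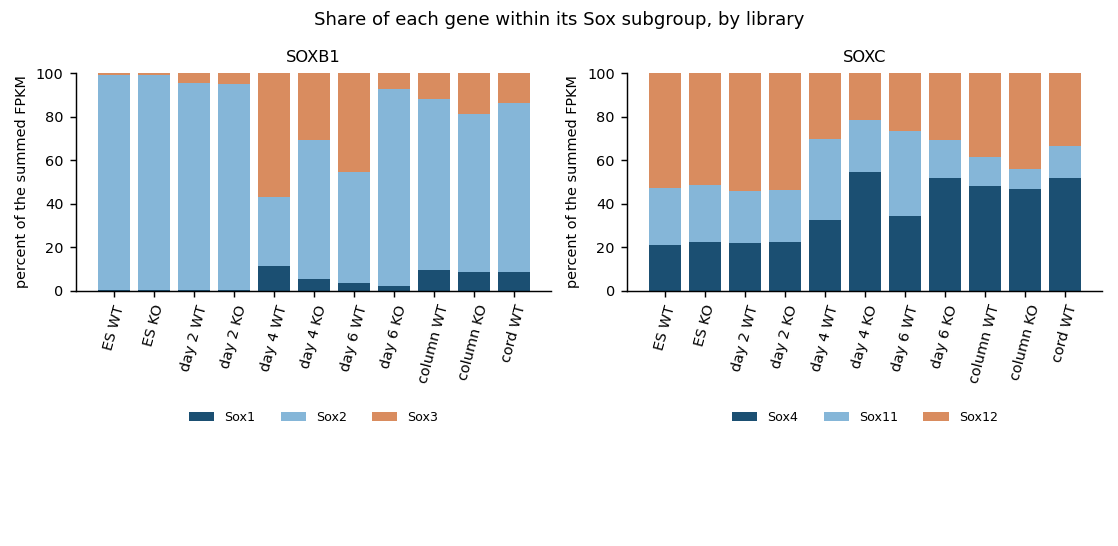
Share of each gene (percent of the summed FPKM, stacked to 100) within the SOXB1 group, left, and the SOXC group, right, in each of the 11 libraries, 1 bar per library. Sox3 takes 56.8% of the SOXB1 sum in the WT-labelled library at day 4 and 7.27% in the KO-labelled one at day 6.

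The SOXD members *Sox5* and *Sox6* were higher in each of the 3 tissue libraries than in any culture library. *Sox5* stayed below 1 FPKM in all 8 culture libraries, between 0.0433 FPKM in WT-labelled ES cells and 0.268 FPKM in the WT-labelled EBs of day 6. It was at 1.20 FPKM in WT spinal column, 0.563 in the KO-labelled one and 3.35 in spinal cord. *Sox6* exceeded 1 FPKM in 1 culture library, that labelled KO at day 4, at 1.24 FPKM beside 0.797 in that labelled WT, and ran between 0.0723 and 0.797 FPKM in the others. In WT and KO-labelled spinal column it was at 3.68 and 2.57 FPKM, and in spinal cord at 3.32 FPKM. It was the only member that was not higher in spinal cord than in WT spinal column.

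The lowest values rest on few fragments. FPKM times transcript length starts at a step near 0.00708 to 0.0282 in the 8 culture libraries, which is about what 1 fragment is worth. By that rough measure the *Sox5* values below 0.1 FPKM stand for about 14.1 to 29.0 fragments each.

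*Sox9*, the SOXE gene, rose at each step of the WT-labelled series, and most from day 4 to day 6. It was at 0.317, 0.454, 1.02 and 6.85 FPKM in the WT-labelled libraries and at 0.330, 0.275, 1.43 and 3.31 FPKM in those labelled KO. It was the only member more than 2-fold higher at day 6 than at day 4 in either series. In tissue it was at 3.99 FPKM in WT spinal column, 2.74 in the KO-labelled one and 8.06 in spinal cord.

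**Figure D3:**
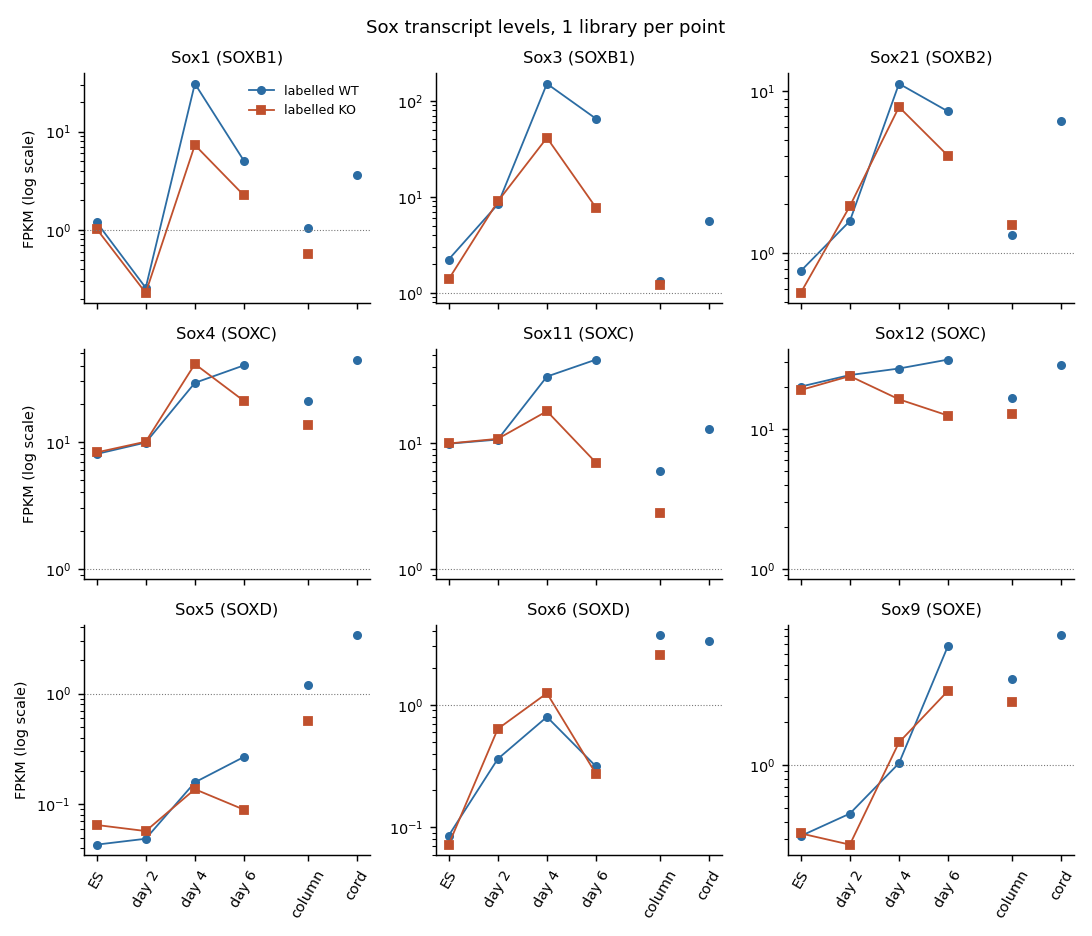
FPKM (log axis) of each gene in ES cells, EBs of days 2, 4 and 6, newborn spinal column and newborn spinal cord, with 1 library per point, circles for WT-labelled libraries and squares for those labelled KO, and a dotted line at 1 FPKM. The lines of Sox3 and Sox11 part after day 2, and those of Sox4 cross between days 4 and 6.

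For counts, a gene was called past 2-fold when its ratio exceeded 2 in either direction and it exceeded 1 FPKM in 1 or both of the libraries compared. Along the WT-labelled series, 2 members were called higher at day 2 than in ES cells, *Sox3* and *Sox21*, beside 5.27% of 12290 loci, and 1 was called lower, *Sox1*, beside 7.96%. The call of *Sox21* rests on 1.58 over 0.773 FPKM and ends with the value of the same ES cells in the spinal cord table (0.843 FPKM), with centred ratios, with 0.1 or 1 FPKM added or with 1 FPKM required in both libraries. The call of *Sox1* ends with 1 FPKM added or required in both. From day 2 to day 4, 6 were higher, beside 15.7% of loci, and 0 lower, beside 13.7%. The log2 ratios of these 6 were 6.89 for *Sox1*, 4.17 for *Sox3*, 2.82 for *Sox21*, 1.66 for *Sox11*, 1.56 for *Sox4* and 1.17 for *Sox9*. *Sox1* and *Sox9* were below 1 FPKM at day 2, at 0.258 and 0.454 FPKM, and their calls end with 1 FPKM required in both libraries. That of *Sox9* also ends with 1 FPKM added. From day 4 to day 6, 1 was higher, *Sox9*, beside 17.0%, and 2 were lower, *Sox1* and *Sox3*, beside 9.97%.

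In the KO-labelled libraries the first step was the same in kind, with *Sox3* and *Sox21* called higher (2 members, beside 6.01% of loci) and *Sox1* lower (1 member, beside 8.38%). With 1 FPKM added or required in both, only *Sox3* was called. From day 2 to day 4, 5 members were higher, beside 15.4%, and 0 lower, beside 7.74%. *Sox11* was the one of the WT-labelled 6 not among them, with a log2 ratio of 0.73. Here too the calls of *Sox1* and *Sox9* end with 1 FPKM required in both libraries, and that of *Sox9* with 1 FPKM added. From day 4 to day 6, 5 were lower, *Sox1*, *Sox3*, *Sox6*, *Sox11* and *Sox21*, beside 11.1%, and 1 was higher, *Sox9*, beside 12.4%. With 1 FPKM added, *Sox6*, *Sox21* and *Sox9* were no longer called. The call of *Sox21* (7.99 to 3.98 FPKM) also ends with 0.1 FPKM added, and that of *Sox6* (1.24 to 0.272 FPKM) with 1 FPKM required in both. Steps join libraries of separate tables.

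Between genotypes, 0 of the 9 were called in ES cells, beside 1.13% of loci in either direction, and 0 at day 2, beside 2.58%. Of the 5 members above 1 FPKM in ES cells, the ratio farthest from 0 was that of *Sox3*, -0.69 on the log2 scale.

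At day 4, 2 members were lower in the KO-labelled library, *Sox1* (log2 ratio -2.07) and *Sox3* (-1.87), beside 4.46% of 12563 loci. Both lay among the lowest ratios of all loci, 0.792% of loci lying below *Sox1* and 1.14% below *Sox3*. 0 members were called higher, beside 12.1% of loci. *Sox11* was at -0.91, *Sox12* at -0.73 and *Sox21* at -0.48, and *Sox4*, *Sox6* and *Sox9* were above 0, at 0.49, 0.64 and 0.49. The median over the 9 was -0.48, beside -0.03 over all loci.

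At day 6 all 9 members were lower in the KO-labelled library. Of these, 5 were called, beside 9.93% of 13006 loci, and 0 were called higher, beside 10.5%. The log2 ratio was -3.08 for *Sox3*, -2.72 for *Sox11*, -1.33 for *Sox12*, -1.17 for *Sox1* and -1.05 for *Sox9*. *Sox4* at -0.93 and *Sox21* at -0.91 stood just inside 2-fold, and *Sox5* (-1.58) and *Sox6* (-0.20) were below 1 FPKM in both libraries. The *Sox5* values at day 6 stand for about 68.9 fragments in the WT-labelled library and 29.0 in that labelled KO. The median over the 9 was -1.17, and that of all loci -0.00320. With 1 FPKM added to both values, *Sox1* and *Sox9* were no longer past 2-fold.

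The 4 genes with no TAF9B peak within 50 kb, *Sox3*, *Sox5*, *Sox11* and *Sox21*, had ratios at day 6 of -3.08, -1.58, -2.72 and -0.91. The 5 with such a peak had ratios from -1.33 for *Sox12* to -0.20 for *Sox6*. The order was otherwise at day 4, when the lowest ratio was that of *Sox1*, which has a peak, and the genes without one ran from -1.87 for *Sox3* to -0.21 for *Sox5*. In spinal column the genes without a peak ran from -1.10 for *Sox11* to 0.21 for *Sox21*, and those with one from -0.88 for *Sox1* to -0.38 for *Sox12*. Counted over the whole gene body, *Sox5* has a TAF9B peak as well. The ChIP cultures were of another clone than the RNA-seq cultures and were taken at a later day of differentiation than day 6.

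**Figure D4:**
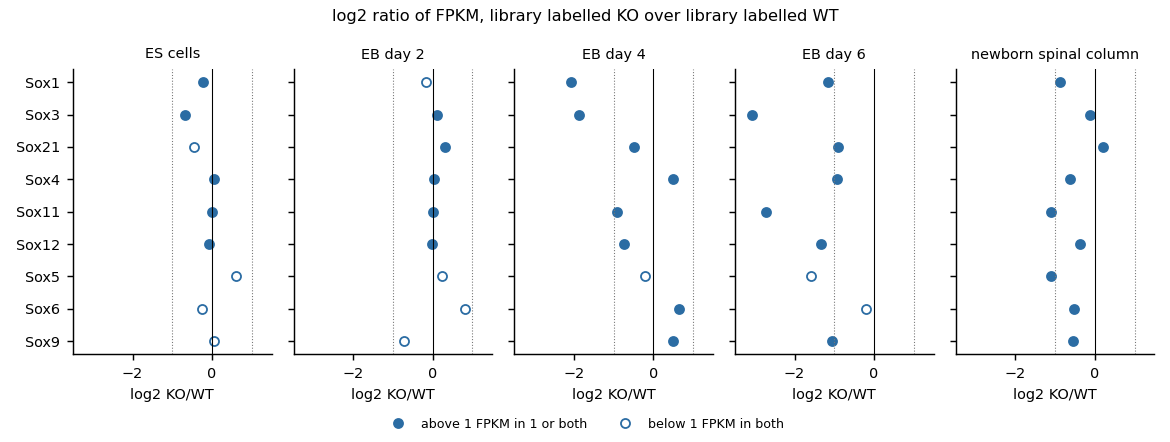
log2 ratio of FPKM, KO-labelled over WT-labelled, for each gene (rows) in ES cells, EBs of days 2, 4 and 6 and newborn spinal column (panels), with open circles where both libraries were below 1 FPKM and dotted lines at 2-fold. At day 6 all 9 circles lie left of 0, and Sox3 and Sox11 lie farthest.

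Other genes of the same cultures moved with these values. Of 12 genes of neural progenitors and SOXB partners, 9 at day 4 and 12 at day 6 were more than 2-fold lower in the KO-labelled library, with median log2 ratios of -2.68 and -2.61. Their extremes were *Hes5*, a Notch target (-4.30), and *Pou3f1*, a POU factor (1.10), at day 4, and the neurogenic factor *Neurog2* (-7.66) and *Pou3f1* (-1.29) at day 6. Of 12 neuron genes, 2 were lower and 1 higher past 2-fold at day 4, from *Elavl4* (-1.63) to *Nefl* (1.83), and at day 6 10 were lower past 2-fold and all 12 were below 0, from *Elavl4* (-5.54) to *Tead2* (-0.89). The medians of the neuron list were -0.03 and -3.73. *Tead2* was the one gene of that list lower in spinal cord than in WT-labelled ES cells, at 13.2 and 61.7 FPKM, which goes against the name of the list.

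Markers of undifferentiated ES cells, simple epithelium and fibroblasts were higher in the KO-labelled libraries on those days, and other lists were mixed. The summed FPKM of 8 ES cell genes was 114 in the WT-labelled library and 860 in that labelled KO at day 4, and 1474 and 4215 at day 6, with all 8 past 2-fold at day 4 and 7 at day 6. The summed FPKM of 5 genes of simple epithelium was 102 and 494 at day 4 and 193 and 1228 at day 6, all 5 past 2-fold on both days. In ES cells the same genes summed to 481 and 476 FPKM, so at day 4 this list does not tell epithelium apart from undifferentiated cells. The summed FPKM of 6 fibroblast genes was 4.42 and 31.9 at day 4 and 46.3 and 124.9 at day 6, with 6 and then 4 of them past 2-fold. None of these 19 genes was at 0 in any of the 4 libraries. Of 6 cartilage genes above 1 FPKM at day 4, when *Sox6* and *Sox9* were the higher in the KO-labelled library, 5 were more than 2-fold higher in it, of which *Col9a3*, *Hapln1* and *Comp* exceeded 1 FPKM only there, as *Sox6* did. *Col11a2*, below 1 FPKM in both, was lower, at 0.549 and 0.169 FPKM. The summed FPKM of all 11 on the list was 14.8 and 39.0. At day 6, of 4 such genes, 1 was higher and 1 lower past 2-fold, *Col9a2* (1.27) and *Col2a1* (-1.25).

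Of the genes of radial glia and astrocytes above 1 FPKM, 2 of 3 were lower past 2-fold at day 4, with *Slc1a3* at -1.81, and 1 of 4 at day 6, *Fabp7* (-3.23), when 2 of the 4 were above 0 and the median was -0.09. Of the oligodendrocyte genes, 1 of 4 was higher at day 4, *Pdgfra* (1.91), and of 3 at day 6 *Pdgfra* was higher (1.65) and *Mbp* lower (-1.18). Of 4 endoderm genes, 1 was higher at day 4, *Gata4* (1.89), and 0 were past 2-fold at day 6, and of 2 muscle genes 1 was higher at day 4, *Des* (1.43), and 0 at day 6. The part of cells that express these genes in the Sox ratios was not tested.

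**Figure D5:**
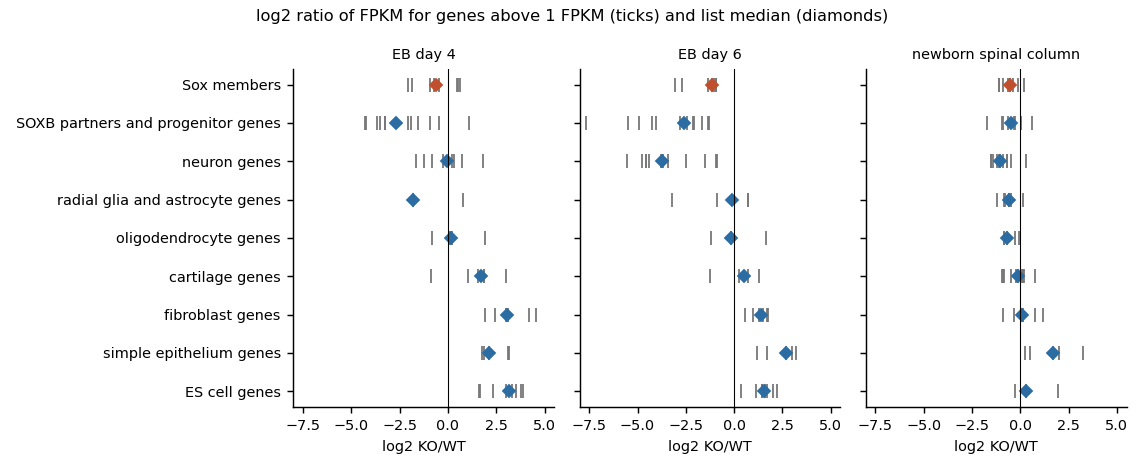
log2 ratio of FPKM, KO-labelled over WT-labelled, at EB days 4 and 6 and in newborn spinal column, for genes exceeding 1 FPKM in 1 or both libraries (ticks) and the median of each list over those genes (diamonds, red for the 9 Sox genes). At day 6 the neuron genes have a median of -3.73, below the Sox genes, and the ES cell genes one of 1.52.

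In newborn spinal column 8 of the 9 members were lower in the KO-labelled library, and 2 were called, *Sox11* (log2 ratio -1.10) and *Sox5* (-1.09), beside 8.54% of 14255 loci. 0 were called higher, beside 9.05%. By the rough measure above, the KO-labelled values of these 2 stand for about 35.4 fragments of *Sox11* and 25.7 of *Sox5*, beside 213 and 154 in the WT-labelled library. The *Sox11* estimates take a transcript of 2013 bases, while its locus spans 8.45 kb, so they may be too low. The rest ran from -0.88 for *Sox1* to 0.21 for *Sox21*, and the median over the 9 was -0.54, beside 0.06 over all loci. With 1 FPKM added to both values neither was past 2-fold, and with 0.1 FPKM added only *Sox11* was.

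The tissue holds more than cord. Of 11 cartilage genes, 0 were past 2-fold in either direction, with summed levels of 264 FPKM in the WT-labelled library and 179 in that labelled KO and ratios from -0.97 for *Col11a2* to 0.75 for *Hapln1*. Of 12 neuron genes, 7 were more than 2-fold lower in the KO-labelled library, with sums of 1413 and 804 FPKM, and their median of -1.05 lay near the ratio of *Sox11*. Of 7 genes of radial glia and astrocytes, 1 was lower past 2-fold and 6 had a ratio below 0, with a median of -0.59. Of 5 oligodendrocyte genes above 1 FPKM, 0 were past 2-fold and 5 had a ratio below 0, with a median of -0.66, beside -0.54 for the 9 Sox genes. Of 5 genes of simple epithelium, 3 were more than 2-fold higher in the KO-labelled library, with sums of 9.35 and 24.1 FPKM. Of 6 fibroblast genes 1 was higher past 2-fold, *Lum* (1.17), and of 8 progenitor and partner genes above 1 FPKM 1 was lower, *Nkx6-1* (-1.72). The muscle genes cannot be summed for comparison, since *Ckm* was at 3407 FPKM in the WT-labelled library and listed at 0 in the other, *Myh8* was listed at 0 and at 753 FPKM, and *Acta1* was listed at 0 in both. Of the 3 with a value in each, *Des* was at 1055 and 1419 FPKM, *Myog* at 92.8 and 115.7 FPKM and *Myh3* at 420.5 and 218 FPKM. The part of these cells in the Sox ratios was not tested.

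Against ES cells, in the table the authors made of both, 7 of the 9 members were called higher in spinal cord, beside 30.4% of 14390 loci, and 0 lower, beside 35.7%. The log2 ratios were 6.15 for *Sox5*, 5.15 for *Sox6*, 4.55 for *Sox9*, 2.96 for *Sox21*, 2.35 for *Sox4*, 1.47 for *Sox1* and 1.20 for *Sox3*. *Sox5*, *Sox6*, *Sox9* and *Sox21* were below 1 FPKM in ES cells, at 0.0471, 0.0932, 0.345 and 0.843 FPKM. With 1 FPKM required in both libraries 3 members were called, *Sox1*, *Sox3* and *Sox4*, beside 56.0% of loci in either direction. With 1 FPKM added, *Sox5* was at 2.05, *Sox6* at 1.98, *Sox9* at 2.75 and *Sox3*, no longer called, at 0.94. *Sox12*, at 0.38, and *Sox11*, at 0.26, stayed within 2-fold. The median of loci above 1 FPKM in both libraries was -0.45, and all 9 were above it. The neuron gene *Dcx* was at 51.8 FPKM in spinal cord and the ES cell gene *Pou5f1* was listed at 0.

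Of the 11 other Sox genes, 5 exceeded 1 FPKM in 1 or both libraries at day 4, and 1 was past 2-fold, *Sox15*, at 0.674 FPKM in the WT-labelled library and 8.65 in that labelled KO. At day 6 it was again the only one of 6, at 11.1 and 26.5 FPKM. In spinal column 0 of 7 passed. *Sox2* was at 83.7 and 85.7 FPKM at day 4 and at 73.0 and 95.7 FPKM at day 6, not lower in the KO-labelled library on those days as *Sox1* and *Sox3* were. In spinal column *Sox2* was at 8.71 and 4.68 FPKM, a log2 ratio of -0.90 beside -0.88 for *Sox1* and -0.12 for *Sox3*. In spinal cord over ES cells 4 were higher and 3 lower past 2-fold, from *Sox10*, the oligodendrocyte factor (7.63), to *Sox15* (-5.80).

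Among the members the profiles over the 11 libraries, as Pearson's r of log2(FPKM + 1), were most alike for *Sox4* and *Sox21* (0.89), *Sox3* and *Sox11* (0.87) and *Sox3* and *Sox21* (0.87), and least alike for *Sox6* and *Sox11* (-0.34). These are descriptions over 11 libraries, which share cultures, tables and scaling. The 3 loci most like each member, of all that were above 1 FPKM in at least 3 libraries, are named by the same measure. For *Sox1* they were *Smad3*, *Pax6*, which encodes a progenitor homeodomain factor, and *Tmem33*, with r of 0.95 to 0.96. For *Sox3* they were *Zfp113*, *Jrk* and *Thap2*, with r of 0.97 to 0.99. For *Sox21* they were *Fads1*, *St6galnac3* and *Tdrd3*, with r of 0.96 to 0.97.

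*Sox4* was most like *Grip1*, *Zfp319* and *Bmp7*, with r of 0.96 to 0.97. *Sox11* was most like *Zfp647*, *Fbxo16* and *Rnf165*, with r of 0.96 to 0.97. *Sox12*, whose range was narrow, was most like *Lsm14b*, *Dll3*, which encodes a Notch ligand, and *Arrb2*, with r of 0.90 to 0.94. *Sox5* was most like *B3galt1*, *Creg2* and *Gpr137c*, with r of 0.996 to 0.997. It exceeded 1 FPKM in only 2 of the 11 libraries, so this r rests mainly on the tissue values. *Sox6* was most like *Magel2*, *Fam120c* and *Fam13a*, with r of 0.96 to 0.98. *Sox9* was most like *Camk2n1*, *Ctxn1* and *Fam78b*, with r of 0.98.

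At 4 of the genes another gene is annotated under one of the peaks given above, *Gm5607* at *Sox1*, *Gm14662* at *Sox3*, *Gm4675* at *Sox21* and *BC006965* at *Sox9*, and the locus of *Sox1* in the tables spans 51.0 kb. Whether counting used strand is not given in the sources used here, so fragments of such pairs cannot be told apart.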

How the data were processed

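RNA-seq of 11 libraries and ChIP-seq of WT motor neuron cultures were used, 1 library per condition; the IgG library was not used here. The authors deposited FPKM values, made from poly-A reads mapped with TopHat to RefSeq genes (mm9) and scaled by Cuffdiff in tables of 2 libraries, and MACS peak scores, after mapping with Bowtie to mm9. Their versions are not given in the sources used here. The tables also hold the authors' fold changes and p-values, which were not used, and no read counts, so depth is known only roughly, from the smallest values.

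Log2 ratios were taken without a pseudocount. Loci above 1 FPKM in at least 1 library were considered, and more than 2-fold was the threshold. With 1 library per condition no test was made and no p-value is given. Start sites on mm9 came from GENCODE vM1 and from RefSeq promoters of GRCm38.p6, of which 32197 of 32851 matched mm9 once. Of 23152 loci, 22832 had a symbol. Likeness was Pearson's r of log2(FPKM + 1) over 11 libraries, leaving out loci with the Cuffdiff status HIDATA. Named were all 9 members, *Taf9b*, the 3 loci most like each member, the nearest and highest TAF9B peaks, the nearest POL2 peaks and, from the lists described in the text, the genes of highest and lowest ratio; any other gene was picked with its values known. The members and lists were chosen with earlier results of these data known. The counting of calls was checked on simulated data. Python 3.11.15 with pandas and numpy was used.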

Additional observations from a re-analysis of the deposited data

Results flagged for a closer look

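The KO-labelled over WT-labelled log2 ratio turned from above to below 0 for 3 members at stages where they exceeded 1 FPKM and differed by more than 25%. For *Sox4* it was 0.49 at EB day 4, -0.93 at day 6 and -0.62 in spinal column. For *Sox9* it was 0.49 at day 4, -1.05 at day 6 and -0.54 in spinal column. For *Sox6* it was 0.64 at day 4 and -0.52 in spinal column. The turn of *Sox6* sets culture against tissue, and with exchanged culture labels both of its ratios would be below 0. Each rests on 1 library a condition, and the difference between the stages was not tested.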

How the results depend on the processing

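No paired analysis was possible because each group has 1 library, and for the same reason no library could be left out. Of the counts of members past the threshold, 1.5-fold in place of 2-fold gave 1 in ES cells, 5 at EB day 4 and 4 in spinal column, beside 2.69%, 32.2% and 41.2% of all loci in either direction. A 4-fold threshold gave 1 at day 4, 2 at day 6 and 0 in spinal column, beside 5.40%, 6.25% and 3.30% of loci, and over time 6 of 27 gene-by-step ratios in the libraries labelled WT, beside 12, and 9 in those labelled KO, beside 14. With 1 FPKM added to both values the counts were 3 at day 6 and 0 in spinal column, beside 13.3% and 10.04% of loci, and 8 over time in the libraries labelled KO, and with 0.1 FPKM added 1 in spinal column, beside 16.6% of loci. Requiring 1 FPKM in both libraries gave 1 in spinal column and 3 in spinal cord over ES cells, beside 13.0% and 56.0% of loci, and 9 over time in the libraries labelled KO. TAF9B peaks were at 2 members within 500 bp, beside 20.8% of genes, and at 2 when only peaks covered for at least 50% of their length by a POL2 peak were counted, beside 33.6%. The other counts, those with centred ratios and with no filter among them, stayed within 1.5 times, with the steps over time taken as a total of 3 for each series, and no ratio past 2-fold changed sign. No value has a replicate. By the rough measure of fragments, the values resting on the fewest include *Sox5* in culture, down to about 14.1, and *Sox3* in the KO-labelled spinal column, about 15.9, and *Sox1* was not estimated.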

Other observations

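The relatives of the SOXD and SOXE members held most of their groups' transcript in some of these samples. *Sox13*, the SOXD gene that was not a member, was at 10.9 and 12.6 FPKM in WT-labelled and KO-labelled ES cells, where *Sox5* and *Sox6* were below 0.1 FPKM, and at 21.7 and 29.7 FPKM at EB day 4. In spinal cord it was at 4.28 FPKM, beside 3.35 for *Sox5* and 3.32 for *Sox6*, so that the 3 genes were of like level there. Among the SOXE genes, *Sox9* led at EB day 6 in both libraries, at 6.85 and 3.31 FPKM beside at most 1.24 FPKM for *Sox8* and 0.638 FPKM for *Sox10*. In spinal cord *Sox10*, a gene of oligodendrocyte and neural crest lineages, was at 25.0 FPKM, *Sox8* at 13.6 FPKM and *Sox9* at 8.06 FPKM. In spinal column *Sox10* was at 15.2 FPKM in the WT-labelled library and 8.395 FPKM in the KO-labelled one, and *Sox18*, an endothelial gene, at 13.5 and 17.5 FPKM. None of these differences between genotypes has a replicate, and none was tested.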
